A study of Mus musculus with 4 samples.

Results

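The NF-κB system described here comprises 10 genes of the 25655 in the deposited tables. They are the 5 genes for the NF-κB subunits (*Nfkb1*, *Nfkb2*, *Rela*, *Relb* and *Rel*) and 5 genes for inhibitors of the IκB family (*Nfkbia*, *Nfkbib*, *Nfkbie*, *Nfkbiz* and *Nfkbid*), taken from the tables by symbol. All 10 were found in each of the 4 libraries, and all 10 had a mean above 10 TPM, a transcript level corrected for gene length and scaled to the same total in each library.

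NF-κB transcription factors are dimers of the 5 subunits, which are held in the cytoplasm by IκB proteins until the IκB kinases mark these for degradation. NF-κB switches on the gene of its own main inhibitor, IκBα, so that *Nfkbia* transcripts rise soon after activation and the protein then ends the response. In neutrophils the pathway drives inflammatory cytokines and chemokines and prolongs survival, and the atypical nuclear IκB proteins encoded by *Nfkbiz* and *Nfkbid* adjust which target genes respond.

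RNA-Seq was performed on neutrophils from the hearts of young adult male wild-type (WT) and *Cd300a-/-* mice, both on the C57BL/6 background, on day 3 after myocardial infarction and reperfusion (MI/R). The left anterior descending artery had been tied and reopened, and the hearts were digested with collagenase. Cells positive for CD45.2, CD11b and Ly6G were sorted into SiglecF hi and SiglecF lo neutrophils, which gave 4 groups of 1 library, each a pool of 8 hearts. The *Cd300a-/-* mice lack the inhibitory receptor CD300a in every cell, so that a difference need not arise in the neutrophils themselves. Since a group is 1 library, differences lack any check by replicates, P values are not given, and the values describe these libraries alone. In pooled RNA, fewer cells of a type and less RNA per cell cannot be told apart.

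The depth, as the sum of counts over all genes, was 19278243 in the WT and 17632989 in the *Cd300a-/-* SiglecF hi library, and 9631901 and 10988619 in the matching SiglecF lo libraries. *Cd300a* itself had 6640 and 3024 counts in the WT SiglecF hi and SiglecF lo libraries, against 27 and 28 in the *Cd300a-/-* libraries. *Siglecf* stood at 354 and 405 TPM in the SiglecF hi libraries of WT and *Cd300a-/-* mice and at 11.3 and 15.3 TPM in the SiglecF lo libraries. Both genes were low in the libraries whose labels call for it. *Ly6g*, the marker of the neutrophil gate, stood at 11.1 and 41.9 TPM in the SiglecF hi libraries and at 330.4 and 889 TPM in the SiglecF lo libraries, in the order WT and *Cd300a-/-*. Of 8 eosinophil markers *Epx*, a defining gene, had 0 counts in all 4 libraries, whereas *Ear2* had 693 (WT) and 639 counts (*Cd300a-/-*) in the SiglecF hi libraries and 630 and 350 in the SiglecF lo libraries. *Ccr3*, named after its values were seen, had 141 counts in each SiglecF hi library, against 25 and 33 in the SiglecF lo libraries. *Prg2*, *Prg3*, *Ear1* and *Ear6*, also named after their values were seen, had at most 6 counts in any library. *Il5ra*, named in the same way, had 11 and 9 counts in the SiglecF hi libraries and 12 and 4 in the SiglecF lo libraries.

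Differences between libraries are given as the log2 of the (TPM + 1) ratio, with a 95% counting interval from the counts of the libraries compared. The intervals cover counting error alone, since the reads carry no molecular identifiers and need not be independent molecules. A gene is counted as higher or lower past 0.5 in either direction, among the 6523 genes with a mean above 10 TPM. The 4 comparisons share libraries and are not independent of each other.

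The comparison of *Cd300a-/-* with WT neutrophils addresses what the loss of CD300a does in each subset. In the SiglecF lo libraries the ratios of all 5 subunit genes were above 0, that of *Nfkb1* past 0.5, whereas *Nfkbia* was lower. In the SiglecF hi libraries all 10 ratios were above 0 and none reached 0.5. Past 0.5 lay 2 of 10 members in SiglecF lo neutrophils, 1 in each direction, where 36.3% of all genes passed. In SiglecF hi neutrophils 0 of 10 passed, beside 6.78% of all genes. The members' median ratio was 0.22 in the SiglecF lo and 0.29 in the SiglecF hi subset, beside -0.016 and 0.038 for all genes. Ratios above 0 were found for 8 of 10 members in SiglecF lo neutrophils, beside 48.8% of all genes, and for 10 of 10 in SiglecF hi neutrophils, beside 56.4%.

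Markers of some cell types also differed between the genotypes. The 10 neutrophil markers, led by *S100a9*, summed to 26181 (WT) and 30869 TPM (*Cd300a-/-*) in the SiglecF hi libraries and 153480 and 201341 TPM in the SiglecF lo libraries. *Mpo* had 0 counts in the WT SiglecF hi library, and *Elane* had 0 in the *Cd300a-/-* SiglecF hi and WT SiglecF lo libraries. With a mean above 10 TPM were 8 of the 10, with ratios above 0 for 8 of 8 in the SiglecF lo subset (median 0.36) and 7 of 8 in the SiglecF hi subset (median 0.73). The 7 fibroblast markers, led by *Dcn* and with none at 0 in any library, summed to 2088, 1475, 964 and 979.8 TPM in the same order, and 6 of them had a mean above 10 TPM. Their median ratio was 0.017 in the SiglecF lo and -0.53 in the SiglecF hi subset, where 3 of 6 were lower. The sort on CD45.2 is meant to remove fibroblasts. Macrophage markers had a median ratio of 0.023 in the SiglecF lo and -0.067 in the SiglecF hi subset, with 2 of 9 higher and 0 lower in each. For monocyte and dendritic markers the medians were -0.098 and -0.25, and 0 of 3 passed 0.5 in either subset. The part of these cell types in the ratios of the NF-κB genes was not tested.

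**Figure D1:**
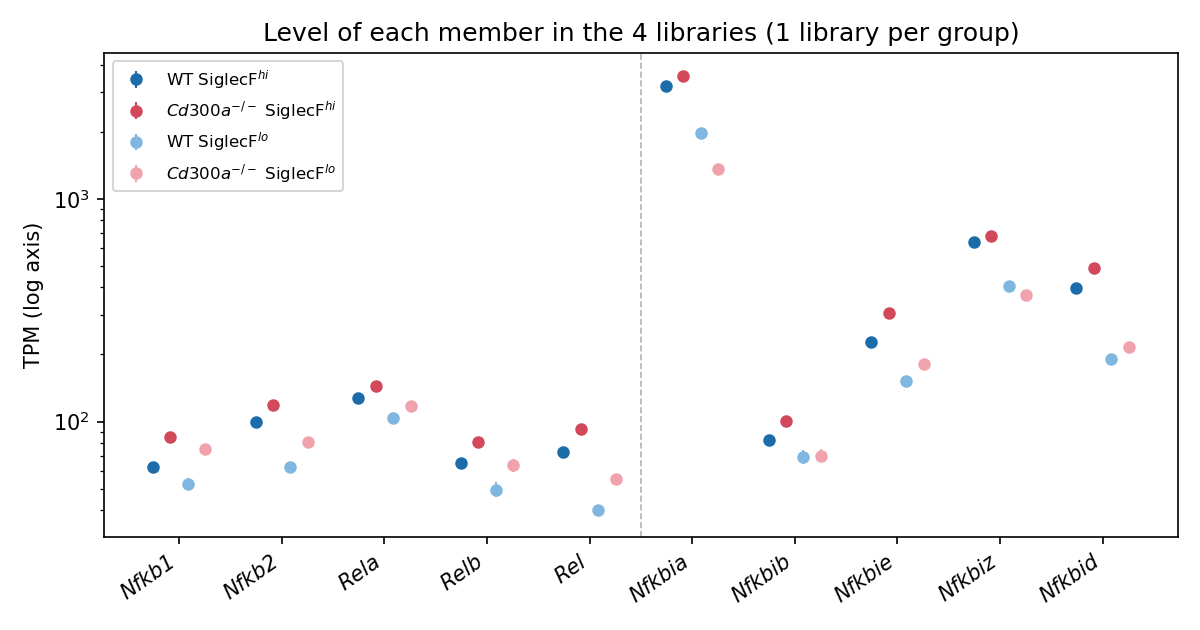
TPM (log axis) of the 10 genes in the 4 libraries, with subunits left and inhibitors right of the dashed line; points are single libraries and bars, mostly hidden by the points, are 95% Poisson intervals of the count on the TPM scale. *Nfkbia* is the highest of the 10 in each library, from 1361 TPM in *Cd300a-/-* SiglecF lo to 3558 TPM in *Cd300a-/-* SiglecF hi neutrophils.

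Among the subunits, *Nfkb1* (ENSMUSG00000028163, chromosome 3 from 135290416 to 135397308 on the minus strand, GRCm39) encodes a precursor that is processed to a DNA-binding subunit without an activation domain. Its level was 62.6 (WT) and 84.8 TPM (*Cd300a-/-*) in the SiglecF hi libraries and 52.5 and 75.0 TPM in the SiglecF lo libraries. In TPM, both *Cd300a-/-* libraries were above both WT libraries. The ratio of *Cd300a-/-* to WT was 0.51 (0.40 to 0.61) in the SiglecF lo subset, just past the threshold, and 0.43 (0.35 to 0.51) in the SiglecF hi subset. *Nfkb1* was the only member to rise past 0.5 between the genotypes.

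*Rel* (ENSMUSG00000020275, chromosome 11 from 23686847 to 23720970 on the minus strand) encodes c-Rel, the activating subunit prominent in blood cells. It was at 73.2 TPM in the WT and 93.0 in the *Cd300a-/-* SiglecF hi library, and 40.0 and 55.1 TPM in the matching SiglecF lo libraries. In TPM, both SiglecF hi libraries lay above both SiglecF lo libraries, and within each subset the library without CD300a was the higher. The genotype ratio was 0.45 (0.36 to 0.54) in the SiglecF lo and 0.34 (0.29 to 0.40) in the SiglecF hi subset. With DESeq2 size factors in place of TPM, the SiglecF lo ratio of *Rel* was 0.51, past the threshold. The WT ratio of SiglecF hi to SiglecF lo was then 0.26, so that the *Cd300a-/-* SiglecF lo library lay above the WT SiglecF hi library.

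The partner subunits of the alternative pathway, *Nfkb2* and *Relb*, were close to each other in their genotype ratios. *Nfkb2* (ENSMUSG00000025225, chromosome 19 from 46292759 to 46300824 on the plus strand) stood at 99.1 (WT) and 119 TPM (*Cd300a-/-*) in the SiglecF hi libraries and 62.6 and 80.7 TPM in the SiglecF lo libraries. *Relb* (ENSMUSG00000002983, chromosome 7 from 19340142 to 19363363 on the minus strand) stood at 65.2, 81.2, 49.5 and 63.6 TPM in the same order. Within each subset the library without CD300a was the higher for both genes. The genotype ratios in SiglecF lo neutrophils were 0.36 (0.26 to 0.46) for *Nfkb2* and 0.36 (0.22 to 0.50) for *Relb*, and in SiglecF hi neutrophils they were 0.26 (0.19 to 0.32) and 0.31 (0.21 to 0.41). *Relb* in the WT SiglecF lo library rests on the fewest counts of any member, 663, with an exact Poisson interval of 613 to 715. *Nfkb2* overlaps *Psd* on the opposite strand by 299 bases. Use of strand in counting is not given in the sources used here, so reads in the overlap cannot be assigned.

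*Rela* (ENSMUSG00000024927, chromosome 19 from 5687511 to 5698158 on the plus strand), which encodes the main activating subunit of the canonical pathway, was the most abundant subunit. It stood at 127 TPM in the WT and 144 in the *Cd300a-/-* SiglecF hi library, and 104 and 117 TPM in the matching SiglecF lo libraries. Its levels as TPM + 1 spanned a range of 1.38-fold from the lowest to the highest library. The genotype ratio was 0.17 (0.081 to 0.27) in the SiglecF lo and 0.18 (0.11 to 0.25) in the SiglecF hi subset.

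The inhibitor gene *Nfkbia* (ENSMUSG00000021025, chromosome 12 from 55536195 to 55539432 on the minus strand), which encodes IκBα, was the most abundant of the 10 genes in each library. Its level was 3209.8 (WT) and 3558 TPM (*Cd300a-/-*) in the SiglecF hi libraries and 1965 and 1361 TPM in the SiglecF lo libraries, from 44448, 44105, 15932 and 12171 counts. The *Cd300a-/-* SiglecF lo library was thus the lowest and the *Cd300a-/-* SiglecF hi library the highest. Among the 6523 genes *Nfkbia* ranked at place 34, 30, 61 and 95 by TPM in the same order of libraries. *Nfkbia* fell in *Cd300a-/-* SiglecF lo neutrophils, with a ratio of -0.53 (-0.56 to -0.50), and in SiglecF hi neutrophils the ratio was 0.15 (0.13 to 0.17). The SiglecF lo ratio minus the SiglecF hi ratio was -0.68 (-0.72 to -0.64). It was the only one of 10 members past 0.5 in this difference, where 34.1% of all genes passed in either direction and 20.3% in the lower. With DESeq2 size factors the SiglecF lo ratio was -0.48, short of the threshold.

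Endothelial transcripts moved in the same directions as *Nfkbia* between the genotypes. The summed level of 6 endothelial markers was 328 TPM in the WT and 441 in the *Cd300a-/-* SiglecF hi library, and 535 and 161 TPM in the matching SiglecF lo libraries. Their most abundant gene, *Fabp4*, which fat cells and some macrophages also express, had a ratio of -1.81 in the SiglecF lo and 0.43 in the SiglecF hi subset, and none of the 6 was at 0 in any library. With a mean above 10 TPM were 5 of the 6, of which 5 were lower in *Cd300a-/-* SiglecF lo neutrophils and 1 was higher in *Cd300a-/-* SiglecF hi neutrophils. Summed cardiomyocyte markers, led by *Mb*, stood at 54.5, 93.9, 48.9 and 26.3 TPM in the same order. The summed level of 13 genes induced by tissue dissociation, led by *Junb*, was 11164, 12019, 9622 and 8694 TPM, and their median ratio was -0.087 in the SiglecF lo and 0.14 in the SiglecF hi subset. The part of these transcripts, or of RNA from such cells, in the *Nfkbia* values was not tested. The sort on CD45.2 is meant to remove endothelial cells and cardiomyocytes too.

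The other inhibitors of the classical kind did not share the lower level. *Nfkbie* (ENSMUSG00000023947, chromosome 17 from 45866629 to 45874095 on the plus strand), which encodes IκBε, was at 227 (WT) and 308 TPM (*Cd300a-/-*) in the SiglecF hi libraries and 152 and 181 TPM in the SiglecF lo libraries. *Nfkbib* (ENSMUSG00000030595, chromosome 7 from 28457676 to 28466937 on the minus strand), which encodes IκBβ, was at 82.4, 100.1, 69.5 and 70.2 TPM in the same order. *Nfkbie* had ratios above 0 in both subsets, 0.25 (0.17 to 0.34) in the SiglecF lo and 0.44 (0.39 to 0.50) in the SiglecF hi subset. For *Nfkbib* the SiglecF lo ratio was 0.013 (-0.12 to 0.15), with a counting interval that included 0, and the SiglecF hi ratio was 0.28 (0.18 to 0.37). *Nfkbib* overlaps *Sirt2* on the opposite strand by 778 bases, and *Sirt2* had 1834, 1595, 876 and 1121 counts, so that the *Nfkbib* counts are uncertain by the reads in the overlap.

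The atypical inhibitors *Nfkbiz* and *Nfkbid* followed *Nfkbia* in level. *Nfkbiz* (ENSMUSG00000035356, chromosome 16 from 55631738 to 55659262 on the minus strand), which encodes IκBζ, a nuclear cofactor needed for a group of secondary response genes, was at 639 TPM in the WT and 683 in the *Cd300a-/-* SiglecF hi library, and 407 and 368 TPM in the matching SiglecF lo libraries. Like *Nfkbia*, it was lowest in the *Cd300a-/-* SiglecF lo library, as were 46.4% of all genes in TPM, and its ratios were small, -0.15 (-0.19 to -0.10) in the SiglecF lo and 0.096 (0.069 to 0.12) in the SiglecF hi subset. *Nfkbid* (ENSMUSG00000036931, chromosome 7 from 30121157 to 30128171 on the plus strand), which encodes IκBNS, was at 396, 489, 189.9 and 217 TPM in the same order. Its levels were separated by subset, with both SiglecF hi libraries above both SiglecF lo libraries. The genotype ratios of *Nfkbid* were 0.19 (0.11 to 0.27) in the SiglecF lo and 0.31 (0.26 to 0.35) in the SiglecF hi subset.

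The genotype ratio was compared between the subsets gene by gene. All 5 inhibitors had a lower ratio in SiglecF lo than in SiglecF hi neutrophils, beside 54.0% of all genes, and 4 of 5 subunits had a higher one, beside 46.0%, though only *Nfkbia* passed 0.5. After *Nfkbia*, the differences of the inhibitors were -0.26 (-0.43 to -0.094) for *Nfkbib*, -0.24 (-0.29 to -0.19) for *Nfkbiz*, -0.19 (-0.29 to -0.088) for *Nfkbie* and -0.12 (-0.21 to -0.024) for *Nfkbid*. Among the subunits the difference was 0.11 (0.0032 to 0.22) for *Rel*, and the counting intervals of the other 4 included 0. The median difference of the 10 members was -0.062, beside -0.048 for all genes.

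**Figure D2:**
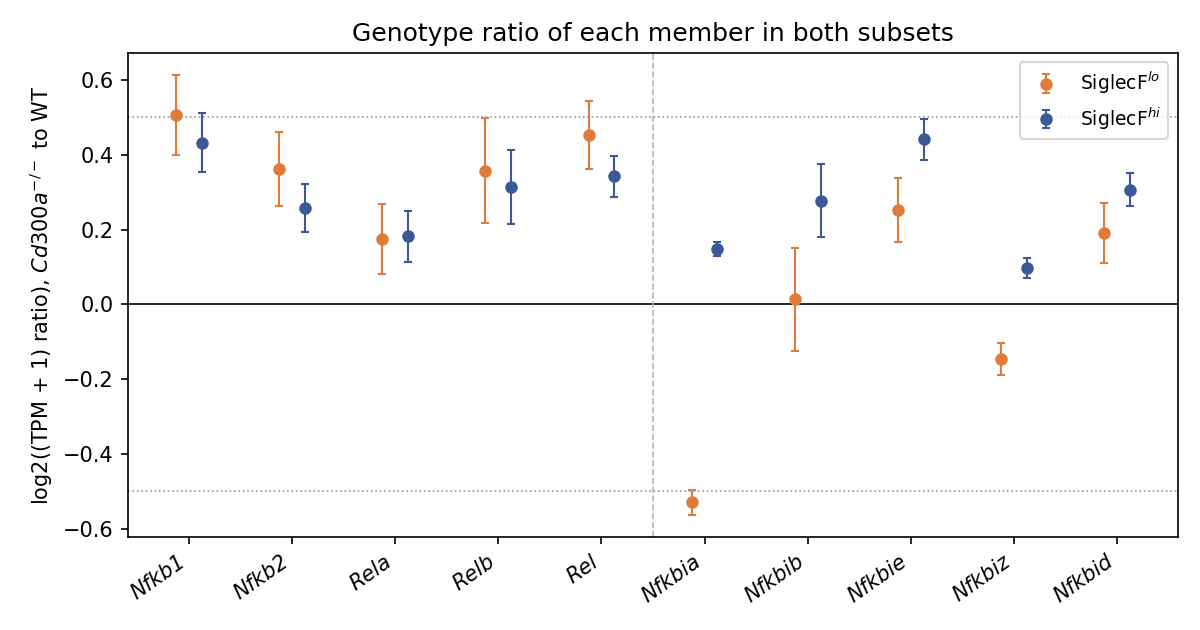
Log2((TPM + 1) ratio) of *Cd300a-/-* to WT for the 10 genes, in SiglecF lo and SiglecF hi neutrophils, each point from 2 libraries, with bars for 95% counting intervals and dotted lines at 0.5 in both directions. *Nfkbia* lies at -0.53 in the SiglecF lo and 0.15 in the SiglecF hi subset.

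Within a library, the balance of inhibitor to subunit transcripts does not depend on how the libraries are scaled. Summed subunit levels were 427 (WT) and 522 TPM (*Cd300a-/-*) in the SiglecF hi libraries and 308 and 392 TPM in the SiglecF lo libraries. Summed inhibitor levels were 4554, 5139, 2784 and 2197 TPM in the same order. For each TPM of subunit the libraries held 10.7, 9.85, 9.02 and 5.61 TPM of inhibitor. The *Cd300a-/-* SiglecF lo library thus had the lowest ratio of inhibitor to subunit transcripts, and the other 3 libraries lay between 9.02 and 10.7. The inhibitor sum includes the atypical nuclear *Nfkbiz* and *Nfkbid*, so the ratio compares these gene groups and is not a measure of NF-κB inhibition. *Nfkbia* alone accounted for 7.52, 6.82, 6.37 and 3.47 TPM per TPM of subunit, and the other 4 inhibitors together for 3.15, 3.03, 2.65 and 2.13.

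*Nfkbia* per subunit fell by 0.88 on the log2 scale in *Cd300a-/-* against WT SiglecF lo neutrophils (-0.94 to -0.82), and the value for SiglecF hi neutrophils was -0.14 (-0.18 to -0.10). For *Nfkbiz* per subunit the values were -0.49 (-0.56 to -0.43) and -0.19 (-0.24 to -0.15). For *Nfkbid* per subunit the difference was -0.15 (-0.25 to -0.059) in the SiglecF lo subset, and in the SiglecF hi subset the value was 0.017 (-0.038 to 0.072). *Nfkbib* per subunit had values of -0.33 (-0.48 to -0.18) and -0.0098 (-0.11 to 0.095), in the order SiglecF lo and SiglecF hi. *Nfkbie* per subunit had a value above 0 in the SiglecF hi subset, 0.15 (0.089 to 0.22), and one of -0.092 (-0.19 to 0.0073) in the SiglecF lo subset. *Nfkbia* made up 70.5% and 69.2% of the summed inhibitor TPM in the WT and *Cd300a-/-* SiglecF hi libraries, and 70.6% and 61.9% in the SiglecF lo libraries. Among the subunits, the *Rela* share of the summed TPM was 29.7%, 27.6%, 33.7% and 30.0% in the same order, the largest share in each library.

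**Figure D3:**
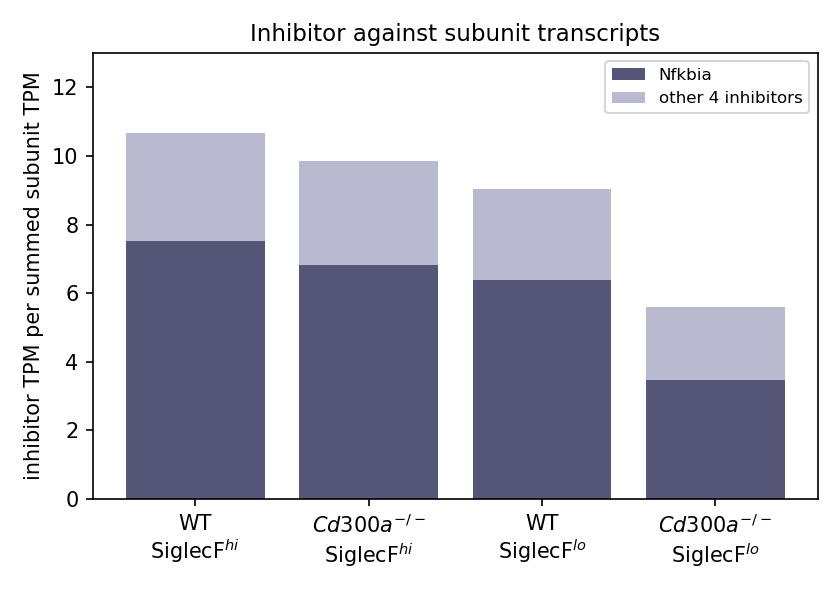
Summed TPM of *Nfkbia* (dark) and of the other 4 inhibitors (light) per summed TPM of the 5 subunits, in each of the 4 libraries. The whole bar is 10.7 in the WT and 9.85 in the *Cd300a-/-* SiglecF hi library, and 9.02 and 5.61 in the matching SiglecF lo libraries.

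The comparison of SiglecF hi with SiglecF lo neutrophils within a genotype describes how the subsets differ. *Nfkbid* was higher in SiglecF hi neutrophils of both genotypes relative to the typical gene, and *Nfkbia* was higher in those of *Cd300a-/-* mice. On the TPM scale most genes were higher in the SiglecF hi libraries, with a median ratio of all genes of 0.53 in WT and 0.61 in *Cd300a-/-* neutrophils. In the SiglecF lo libraries a few genes took more of the total, and the 10 most abundant genes held 22.8% and 26.7% of TPM against 12.3% and 11.8% in the SiglecF hi libraries, in the order WT and *Cd300a-/-*. Before centring, 6 of 10 members passed 0.5 in WT neutrophils, beside 59.4% of all genes, and 7 of 10 in *Cd300a-/-* neutrophils, beside 64.6%. Ratios were therefore centred on the median of all genes, after which 1 of 10 members passed in WT neutrophils, beside 40.2% of all genes, and 2 of 10 in *Cd300a-/-* neutrophils, beside 44.8%. Of all genes 19.3% were higher and 20.9% lower in WT SiglecF hi neutrophils by the centred ratio, and 21.2% and 23.6% in those of *Cd300a-/-* mice.

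Centred on that median, the *Nfkbid* ratio of SiglecF hi to SiglecF lo was 0.53 in WT and 0.56 in *Cd300a-/-* neutrophils, and uncentred it was 1.05 (0.99 to 1.12) and 1.17 (1.11 to 1.23). With DESeq2 size factors the WT value was 0.45, short of the threshold. *Nfkbia* had a centred ratio of 0.18 in WT and 0.77 in *Cd300a-/-* neutrophils, and uncentred 0.71 (0.68 to 0.73) and 1.39 (1.36 to 1.42). Within the inhibitors the centred values of *Nfkbiz* were 0.12 and 0.28, those of *Nfkbie* 0.051 and 0.15, and those of *Nfkbib* -0.28 and -0.11, in the order WT and *Cd300a-/-*. *Nfkbib* was above 0 in both before centring, and *Nfkbie* in WT was at -0.027 with DESeq2 size factors. Among the subunits, *Rel* was the highest by this measure, at 0.33 and 0.13, and *Nfkb2* stood at 0.13 and -0.062, the latter 0.55 before centring. *Nfkb1*, at -0.28 and -0.44, *Rela*, at -0.24 and -0.32, and *Relb*, at -0.14 and -0.27, lay below the typical gene in both genotypes, though above 0 before centring. Per subunit TPM, which needs no scaling of libraries, the difference of *Nfkbia* between SiglecF hi and SiglecF lo neutrophils was 0.24 (0.19 to 0.29) in WT and 0.97 (0.93 to 1.02) in *Cd300a-/-* mice on the log2 scale.

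Transcripts of other cells also differed between the subsets. The summed level of 10 macrophage markers, led by *C1qb*, was 6822 (WT) and 6198 TPM (*Cd300a-/-*) in the SiglecF hi libraries and 2676 and 2633 TPM in the SiglecF lo libraries. By the centred ratio, 6 of 9 with a mean above 10 TPM were higher and 1 lower in WT SiglecF hi neutrophils, and 4 higher and 1 lower in those of *Cd300a-/-* mice. The 6 monocyte and dendritic markers summed to 759, 707, 1292 and 1269 TPM in the same order, of which *Ly6c2* alone made up 270, 226, 756 and 706 TPM. Of the 3 with a mean above 10 TPM, 1 was lower in SiglecF hi neutrophils of each genotype before centring and 3 after it. By the centred ratio, 8 of 8 neutrophil markers with a mean above 10 TPM were lower in SiglecF hi neutrophils of each genotype. Of 6 such fibroblast markers 4 were higher in WT SiglecF hi neutrophils, with a centred median of 0.59, and in those of *Cd300a-/-* mice 0 were higher and 1 was lower, with a centred median of -0.050. The 8 eosinophil markers summed to 117, 119.8, 173 and 87.9 TPM, of which *Ear2*, the only one with a mean above 10 TPM, made up 110, 113, 171 and 85.9 TPM. *Ccr3* stood at 4.91 and 5.49 TPM in the SiglecF hi libraries against 1.49 and 1.78 TPM in the SiglecF lo libraries, the other direction from the WT sum. The 7 markers of T, B and NK cells, led by *Cd3d*, summed to 4.34, 11.7, 7.49 and 8.13 TPM. Of 5 endothelial markers with a mean above 10 TPM, 0 were higher and 5 lower in WT SiglecF hi neutrophils (centred median -1.19). In those of *Cd300a-/-* mice 2 were higher and 0 lower by the centred ratio (median 0.31). The centred median of 4 such cardiomyocyte markers was -0.32 in WT and 0.55 in *Cd300a-/-* neutrophils. The sort on Ly6G is meant to remove macrophages, monocytes, dendritic cells, eosinophils and lymphocytes. That on CD45.2 is meant to remove fibroblasts, endothelial cells and cardiomyocytes. The part of RNA from other cells in the subset ratios of the NF-κB genes was not tested.

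By level, the order of the 5 most abundant members was the same in all 4 libraries, with *Nfkbia* first, then *Nfkbiz*, *Nfkbid*, *Nfkbie* and *Rela*, and these neighbours differed beyond their counting intervals in each library. The inhibitor genes other than *Nfkbib* were thus above every subunit gene. Lower in the order the neighbours were closer. *Relb* and *Nfkb1* did not differ beyond their intervals in WT SiglecF hi, *Cd300a-/-* SiglecF hi or WT SiglecF lo neutrophils. The same held for *Nfkbib* and *Rel* in *Cd300a-/-* SiglecF hi neutrophils and for *Nfkbib* and *Nfkb2* in WT SiglecF lo neutrophils. In *Cd300a-/-* SiglecF lo neutrophils *Nfkb2*, *Nfkb1*, *Nfkbib* and *Relb* followed each other with no neighbours apart beyond their intervals. *Rel* was the lowest member in both SiglecF lo libraries, whereas *Nfkb1* was lowest in WT and *Relb* in *Cd300a-/-* SiglecF hi neutrophils.

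In TPM, all 10 members were highest in the *Cd300a-/-* SiglecF hi library, beside 42.3% of all genes. The lowest level in TPM was in the WT SiglecF lo library for 8 of 10 members, beside 38.8% of all genes, and in the *Cd300a-/-* SiglecF lo library for *Nfkbia* and *Nfkbiz*, 2 of 10, beside 46.4%. The order depends on the scale, since the centred ratios of SiglecF hi to SiglecF lo given above were below 0 for *Nfkb1*, *Rela*, *Relb* and *Nfkbib* in both genotypes and for *Nfkb2* in *Cd300a-/-* mice. *Nfkbia* had the widest range of log2(TPM + 1) over the 4 libraries, 1.39, followed by *Nfkbid* at 1.36 and *Rel* at 1.20. Under the other scalings, an alternative chosen after seeing the data, the widest was *Nfkb1*, at 0.82 with TMM factors and 0.92 with DESeq2 size factors. *Nfkbid* was then at 0.80 and 0.75, *Nfkbia* at 0.80 and 0.72, and *Rel* at 0.66 and 0.60. For the 3 genes widest in TPM the nearest patterns were sought as the smallest Euclidean distance of centred log2(TPM + 1) over the 4 libraries. Nearest to *Nfkbia* were *Tubb6* (distance 0.054), *Eif3i* (0.057) and *Poldip2* (0.057). *Tubb6* stood at 181 TPM in the WT and 190.4 in the *Cd300a-/-* SiglecF hi library, and 106 and 73.2 TPM in the matching SiglecF lo libraries, high and low in the same libraries as *Nfkbia*. Nearest to *Nfkbid* were *Rrs1* (0.049), *Lrch3* (0.049) and *Cry1* (0.058), and nearest to *Rel* were *Tmem30a* (0.049), *Purb* (0.061) and *Avl9* (0.062).

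Upstream of the members, 25 of 29 kinases and adaptors of the pathway had a mean above 10 TPM. In *Cd300a-/-* against WT SiglecF lo neutrophils 5 of 25 were higher and 0 lower, beside 16.4% and 19.9% of all genes. These were *Malt1*, the paracaspase that relays receptor signals to the IκB kinases, at 1.02 (0.85 to 1.18), *Tbk1* at 0.70, *Traf3* at 0.68, *Map3k14*, the kinase of the alternative pathway, at 0.56, and *Rbck1* at 0.55, which was named after its value was seen. In SiglecF hi neutrophils 3 of 25 were higher, *Ikbke* at 0.65, *Traf1* at 0.61 and *Map3k14* at 0.51, and 0 lower, beside 3.31% and 3.46% of all genes. Centred on the median of all genes, *Map3k14* was at 0.47, short of the threshold, and 7 of 25 were higher in the SiglecF lo comparison, beside 17.2% of all genes. In the subset comparison, centred, 2 of 25 were higher and 4 lower in SiglecF hi neutrophils of WT mice, beside 19.3% and 20.9% of all genes, and 3 were higher and 5 lower in those of *Cd300a-/-* mice, beside 21.2% and 23.6%. *Ikbke* was the highest in both, with centred ratios of 0.94 and 1.12.

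Of other brakes on the pathway, 14 of 18 had a mean above 10 TPM. In SiglecF lo neutrophils 4 of 14 passed, 2 in each direction, beside 36.3% of all genes in either direction, and in SiglecF hi neutrophils 0 of 14, beside 6.78%. In *Cd300a-/-* SiglecF lo neutrophils *Irak3*, which blocks signalling from Toll-like and interleukin-1 receptors, was higher at 1.15 (1.02 to 1.28) and *N4bp1* at 0.77, whereas the deubiquitinase gene *Otulin* was lower at -0.77 (-0.98 to -0.55) and *Commd1* at -0.56. *Tnfaip3*, which encodes the feedback inhibitor A20, stood at 528 (WT) and 579 TPM (*Cd300a-/-*) in the SiglecF hi libraries and 183 and 177 TPM in the SiglecF lo libraries. It was thus high in both SiglecF hi libraries, with centred subset ratios of 1.00 in WT and 1.09 in *Cd300a-/-* mice. Centred, 1 of 14 brakes was higher and 3 lower in WT SiglecF hi neutrophils, beside 19.3% and 20.9% of all genes, and 2 higher and 2 lower in those of *Cd300a-/-* mice, beside 21.2% and 23.6%. *Pdlim2* was lower in both, at -1.24 and -1.45. *Bcl3*, a nuclear relative of the atypical inhibitors named after its values were seen, had genotype ratios of 0.23 (0.12 to 0.35) in the SiglecF lo and 0.47 (0.38 to 0.56) in the SiglecF hi subset.

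Of 28 known NF-κB target genes, 27 had a mean above 10 TPM. In *Cd300a-/-* SiglecF lo neutrophils 7 of 27 were lower, beside 19.9% of all genes, and 1 higher, *Cflar* at 0.82, beside 16.4%. The median ratio of the targets was -0.20, beside -0.016 for all genes. The lowest were *Il6* at -1.86 (-2.07 to -1.65), *Cxcl1* at -1.23 (-1.35 to -1.10), *Ccrl2* at -0.66 and *Bcl2a1b* at -0.65, a gene with near-identical copies among which reads could be split. The paper reports *Il6* as comparable between the genotypes, including by quantitative PCR of sorted cardiac neutrophils from several mice. The *Il6* value here is from 1 library per group. In SiglecF hi neutrophils the median ratio was 0.26 beside 0.038, with 1 of 27 higher, *Il1a* at 0.66, and 1 lower, *Cxcl1* at -0.57, beside 3.31% and 3.46% of all genes. The genotype ratio was lower in SiglecF lo than in SiglecF hi neutrophils for 23 of 27 targets, beside 54.0% of all genes, and past 0.5 for 12 of 27, beside 20.3%, or 11 of 27 when centred, beside 18.3%. The median difference of the targets was -0.49, beside -0.048 for all genes. The list was chosen with earlier results of these data known, so these shares are not a test of NF-κB targets as a class. Centred, 8 of 27 targets were higher and 3 lower in WT SiglecF hi against SiglecF lo neutrophils, beside 19.3% and 20.9% of all genes, and 14 higher and 3 lower in those of *Cd300a-/-* mice, beside 21.2% and 23.6%, with *Tnf* at 1.44 and 1.70 and *Icam1* at 1.45 and 1.60. Endothelial cells also express *Il6*, *Cxcl1* and *Icam1*, and the part of the endothelial transcripts in these values was not tested.

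The list of inputs to the pathway was shorter, with 9 of 12 genes above a mean of 10 TPM. Besides receptors that feed the pathway, these include the adaptor gene *Myd88* and the decoy receptor gene *Il1r2*. *Ltbr*, an input of the alternative pathway, was higher at 0.60 (0.44 to 0.77) in *Cd300a-/-* SiglecF lo neutrophils, as was *Il1rap* at 0.54, and *Tnfrsf13b* was lower at -0.89. These were 3 of 9, beside 36.3% of all genes, and in SiglecF hi neutrophils 0 of 9 passed, beside 6.78%. Centred, 1 of 9 was higher and 4 lower in WT SiglecF hi neutrophils, beside 19.3% and 20.9% of all genes, and 1 higher and 6 lower in those of *Cd300a-/-* mice, beside 21.2% and 23.6%. *Tnfrsf13b* was the higher one in both, at 0.67 and 1.54.

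Because *Nfkbia* and other members are targets of NF-κB as well as parts of it, the 250 bases before each RefSeq start (build GRCm38.p6) were searched on both strands for the κB consensus motif of 10 letters. Of the 10 members 7 had an entry, and *Nfkb1*, *Relb* and *Nfkbiz* are named only. The motif was found for 5 of 7, namely *Nfkb2*, *Rel*, *Nfkbia*, *Nfkbie* and *Nfkbid*, and not in the windows of *Rela* and *Nfkbib*. Counted by window, it was in 7 of 11 windows of members and in 7.25% of the 32851 windows of the same length in the table, or 8.23% of 27025 genes. A match describes letters in the window and not a bound site. The matches are shown because these genes encode parts of the pathway and may also be its targets. The *Nfkbia* window is chr12:55492648-55492897 on the minus strand, and its match (capitals) ends 20 bases before the start. For *Rel* there were 2 matches and for *Nfkb2* 3 in the window shown, of which a pair overlaps, shifted by a base, in each stretch below. The other match of that *Nfkb2* window and 1 in each of its other windows are not shown, nor is the other of 2 in the *Nfkbid* window. In each stretch, written 5′ to 3′, the capitals mark all matching letters.
*Nfkbia*, window of 250 bases: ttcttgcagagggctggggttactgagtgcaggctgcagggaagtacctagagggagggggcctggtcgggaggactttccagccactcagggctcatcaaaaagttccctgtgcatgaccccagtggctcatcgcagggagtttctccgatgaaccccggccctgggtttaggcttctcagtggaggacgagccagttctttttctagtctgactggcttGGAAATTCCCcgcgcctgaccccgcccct
*Rel*, chr11:23771042-23771071, minus strand: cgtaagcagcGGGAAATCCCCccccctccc
*Nfkbie*, chr17:45555584-45555613, plus strand: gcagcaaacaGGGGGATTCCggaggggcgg
*Nfkbid*, chr7:30422170-30422199, plus strand: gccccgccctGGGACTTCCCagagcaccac
*Nfkb2*, chr19:46304688-46304717, plus strand: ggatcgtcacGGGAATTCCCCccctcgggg
The *Nfkbid* stretch belongs to the second of 3 annotated starts and the *Nfkb2* stretch to the first of 3.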

How the data were processed

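Poly(A) RNA of 4 libraries was sequenced as paired ends, and per the submitters' processing notes the genome build was GRCm39. The authors deposited for each gene a count without normalization, RPKM, and TPM calculated with CLC Genomics Workbench. The deposited signal named CPM is the count relative to library size and multiplied by a factor, equal to the inverse TMM factor. Counts and TPM were used, and RPKM and that signal were only checked. Aligner settings, annotation release and use of strand are not given in the sources used here. Members and lists were chosen with earlier results of these data known.

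Log2((TPM + 1) ratio) was calculated between libraries, with 95% counting intervals from the Poisson error of both counts. Alternatives were a pseudocount of 0.1, a mean TPM over 1, TPM over 10 in both libraries, no filter, TMM factors (edgeR 4.0.16), DESeq2 1.42.0 size factors, centring on the median, and a threshold of 1. All members were named. From other lists, up to 4 genes past 0.5 with the largest ratio were named per direction and comparison, with the sorting markers, the most abundant gene of each cell type list and the 3 genes nearest to each of 3 members. Calculations were tested on simulated data. Python 3.11.15, numpy 2.4.6, pandas 2.3.3, scipy 1.17.1, matplotlib 3.10.9 and R 4.3.3 were used. Promoter sequences were from RefSeq, and protein sequences were not used here.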

Additional observations from a re-analysis of the deposited data

Results flagged for a closer look

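The genotype ratio of *Nfkbia* had opposite signs in the subsets, -0.53 in the SiglecF lo and 0.15 in the SiglecF hi subset, a difference of -0.68 on the log2 scale. *Nfkbiz* had opposite signs as well, -0.15 in the SiglecF lo and 0.096 in the SiglecF hi subset, a difference of -0.24. Its SiglecF lo ratio was -0.092 with DESeq2 size factors, and its SiglecF hi ratio was 0.058 when centred. With 1 library per group neither difference was tested.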

How the results depend on the processing

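The sign of the genotype ratio of each member was kept under the pseudocount of 0.1, both other scalings and centring. In the subset comparisons, SiglecF hi against SiglecF lo, scaling turned signs, since the typical gene was itself higher in the SiglecF hi libraries. Of 40 member ratios, 9 changed sign with TMM factors, 10 with DESeq2 size factors and 9 with centring. Among ratios past 0.5, *Nfkbie* in WT turned to -0.027 with DESeq2 factors. In *Cd300a-/-* neutrophils *Nfkb2* turned to -0.025 with TMM, -0.11 with DESeq2 factors and -0.062 with centring, and *Nfkbib* to -0.069, -0.15 and -0.11. The median of the members in the subset comparison moved in WT from 0.61 to 0.074 (TMM), 0.0068 (DESeq2) and 0.087 (centred), and in *Cd300a-/-* neutrophils from 0.65 to 0.075, -0.011 and 0.035. Members past the threshold moved from 6 in WT to 1 with TMM, 0 with DESeq2 factors and 1 with centring, and from 7 in *Cd300a-/-* neutrophils to 2 with each of these. Of all 6523 genes, 2680, 2706 and 2622 passed in WT with TMM, DESeq2 factors and centring. In *Cd300a-/-* neutrophils 3007, 2994 and 2922 passed. At a threshold of 1 the members past it were 0 in the SiglecF lo genotype comparison, 1 in the WT and 2 in the *Cd300a-/-* subset comparison. Beside them, 611, 1520 and 1975 of all 6523 genes passed. Of all genes, 2367 passed in the SiglecF lo genotype comparison, against 5178 with a mean TPM over 1, 1516 with TPM over 10 in both libraries, 6476 without a filter and 611 at a threshold of 1. In the SiglecF hi genotype comparison 442 passed, against 1716 with a mean TPM over 1, 2674 without a filter and 46 at a threshold of 1. In the WT subset comparison 3873 passed, against 7317, 8813 and 1520, and in the *Cd300a-/-* subset comparison 4212, against 7619, 8996 and 1975, under the same settings. These filters change how many genes are compared. The range of a member over the libraries also depends on scaling, an alternative chosen after seeing the data: that of *Nfkbia* moved from 1.39 to 0.80 with TMM and 0.72 with DESeq2 factors, that of *Nfkb1* from 0.68 to 0.82 and 0.92, and that of *Nfkbiz* from 0.89 to 0.31 and 0.22. No paired analysis was possible because each group is 1 library. Depth was lowest in the WT SiglecF lo library, and a counting interval says nothing of the spread between pools of hearts, which these libraries cannot give.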
